A study of Mus musculus with 28 samples.

Results

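The 22 protein-coding genes described here were read at a mean of at least 4 CPM (a gene's estimated count over its library's total, in the usual scaling) in P19 cells given MS-275, and at under 0.5 CPM in every other condition of the series. They were chosen by these measured RNA levels, from 21326 protein-coding genes among 55385 gene identifiers. Genes whose symbols start with Hox, Col or Pcdh were to be left out, and 0 genes past the thresholds carried such a symbol. Each threshold applied to the mean of 2 libraries. The RNA levels of the 22 genes are therefore given as a description, with no test.

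The series followed P19, an established mouse embryonal carcinoma line, through neural differentiation in retinoic acid. RNA-seq covered 5 groups of 2 libraries: untreated cells at day 0, cells at day 2 of 1 µM retinoic acid with DMSO, cells at day 2 of the same with MS-275, day 4 progenitors and day 8 cells in neuronal medium. MS-275 (entinostat) was added 24 hours into retinoic acid, as 1 µL of a 10 mM stock, and the DMSO cells received 1 µL of solvent instead. The labels give no volume of medium, so the final concentration is unknown. Day 2 also had ChIP-seq peak lists for H3K9ac, H3K9cr and H3K18la, 1 library per mark and condition, and day 4 had 2 libraries of each mark and 2 of ATAC-seq. All cells came from 1 line, and every group after day 0 had received retinoic acid. The series calls its replicates biological. Whether they were separate cultures was not given, so p-values measure the spread between these libraries. Neural markers (Sox1, Pax6, Nes, Tubb3, Map2 and Dcx) summed to 997 CPM with MS-275 and 708 CPM with DMSO, beside 298 CPM at day 0, 2309 CPM at day 4 and 3067 CPM at day 8. The markers did not move alike: Nes was at 659 CPM with MS-275 against 342 CPM with DMSO, while Sox1 was at 34.6 against 104 CPM and Tubb3 at 58.4 against 91.3 CPM. Pluripotency markers (Pou5f1, Nanog, Utf1, L1td1 and Dppa4) summed to 135 CPM with MS-275 and 49.3 CPM with DMSO, beside 2177 CPM at day 0, 3.75 CPM at day 4 and 56.3 CPM at day 8.

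Class I histone deacetylases remove acetyl groups from histone tails, mostly as the catalytic part of corepressor complexes that keep genes of other lineages silent. MS-275 blocks these enzymes, and acetylation of lysines such as H3K9 then builds up. H3K9ac and H3K9cr, the crotonylated form of the same lysine, lie at the starts of active genes, and deacetylases remove both. H3K18la is the lactylated form of lysine 18 and also lies at active promoters.

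The 22 genes belong to tissues with little in common. They held 5 genes of antigen presentation and the butyrophilin family, 3 of lymphocyte signalling and transcription, and 4 of placenta and testis. The others were 2 homeobox or paired-box factors of the pharynx and stomach, 2 secreted ligands, 4 enzymes, and 2 genes of muscle and secretion. With MS-275 their means ran from 4.01 to 44.4 CPM with a median of 6.23 CPM. The highest mean of any other group ran from 0.212 to 0.472 CPM. Summed over the 22 genes, the level was 213 and 191 CPM in the MS-275 libraries and 5.26 and 4.86 CPM in the DMSO libraries. The same sum was 6.05 and 6.59 CPM at day 0, 1.95 and 3.08 CPM at day 4, and 3.26 and 4.36 CPM at day 8. The 22 genes were thus read at low levels, not at 0, in the other conditions, and 1 of them, H2-Ob, had 0 counts in both DMSO libraries. The highest count of a gene in any other library ranged from 4 to 13. Libraries held between 18115926 and 19586374 estimated counts, so 1 count was 0.0511 to 0.0552 CPM. RNA from whole cultures does not tell more cells with the transcript from more transcript per cell.

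The 250 bases before the start of 5 of the 22 genes are printed for the results on promoters below. Esx1, Plac1, H2-Aa and H2-Eb1 were the highest of the genes with an H3K9ac and H3K9cr peak at the start with MS-275 and none with DMSO. H2-Ob was added after its values were seen, to show the third gene of the MHC class II cluster. Sequences are from RefSeq, build GRCm38.p6, 5′ to 3′ on the gene's strand, at chrX:137120327-137120576 (minus) for Esx1, chrX:53240111-53240360 (minus) for Plac1, chr17:34238655-34238904 (plus) for H2-Ob, chr17:34287824-34288073 (minus) for H2-Aa and chr17:34305617-34305866 (plus) for H2-Eb1. Capitals mark CCAAT or its complement ATTGG, the letters bound by the factor NF-Y.
Esx1: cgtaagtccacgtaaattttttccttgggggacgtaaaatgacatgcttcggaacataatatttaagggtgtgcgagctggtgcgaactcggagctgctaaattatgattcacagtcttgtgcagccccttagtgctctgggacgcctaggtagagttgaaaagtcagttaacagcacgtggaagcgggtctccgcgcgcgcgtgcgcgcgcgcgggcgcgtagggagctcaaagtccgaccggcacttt
Plac1: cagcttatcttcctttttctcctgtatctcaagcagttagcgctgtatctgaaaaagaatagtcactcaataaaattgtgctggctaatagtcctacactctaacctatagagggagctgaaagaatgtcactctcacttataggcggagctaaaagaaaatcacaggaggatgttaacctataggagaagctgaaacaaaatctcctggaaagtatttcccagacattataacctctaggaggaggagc
H2-Ob: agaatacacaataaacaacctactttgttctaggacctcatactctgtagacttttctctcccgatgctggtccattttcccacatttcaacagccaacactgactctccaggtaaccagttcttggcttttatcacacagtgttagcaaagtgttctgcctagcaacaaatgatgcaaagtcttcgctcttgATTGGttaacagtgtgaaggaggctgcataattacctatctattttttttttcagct
H2-Aa: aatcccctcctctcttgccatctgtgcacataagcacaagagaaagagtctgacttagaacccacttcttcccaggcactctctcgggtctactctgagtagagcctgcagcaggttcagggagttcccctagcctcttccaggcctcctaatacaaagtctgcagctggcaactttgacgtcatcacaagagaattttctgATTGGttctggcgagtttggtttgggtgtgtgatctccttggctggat
H2-Eb1: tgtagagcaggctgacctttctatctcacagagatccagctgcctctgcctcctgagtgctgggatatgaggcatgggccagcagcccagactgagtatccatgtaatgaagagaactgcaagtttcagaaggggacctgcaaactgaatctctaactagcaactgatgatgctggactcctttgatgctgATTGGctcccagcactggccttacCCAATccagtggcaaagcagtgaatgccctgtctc

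**Figure D1:**
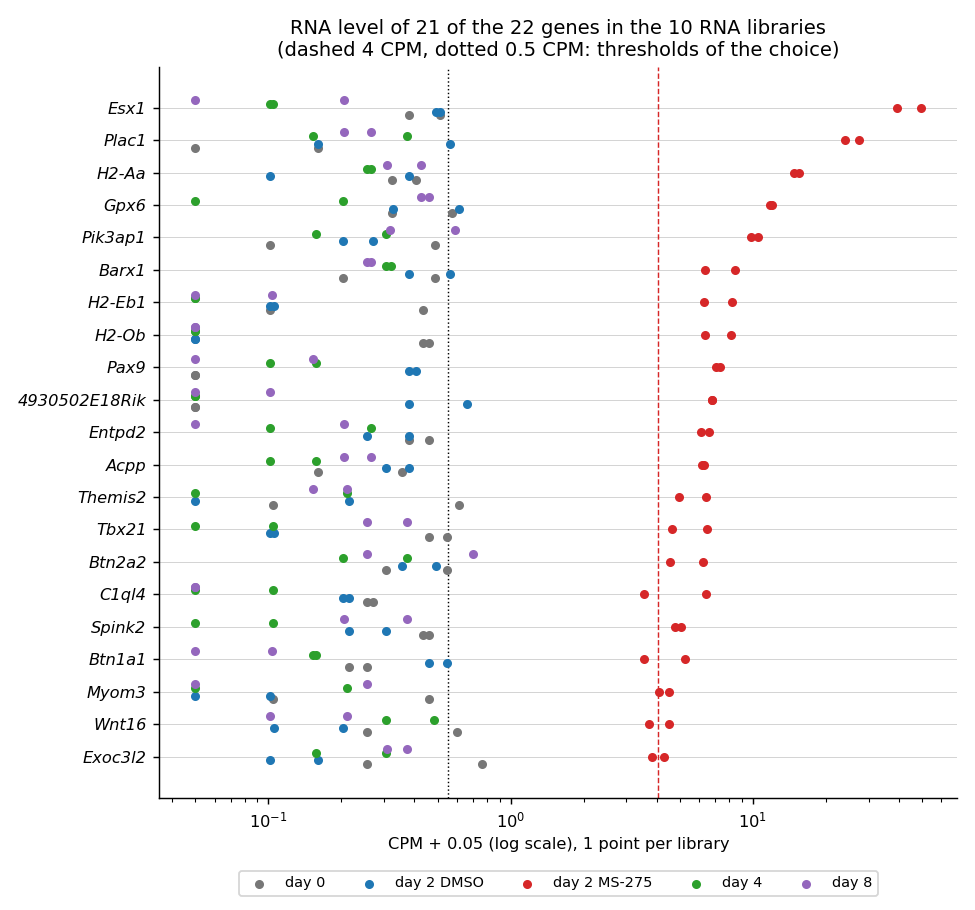
RNA level of 21 of the 22 genes (rows) in the 10 RNA libraries, as CPM plus 0.05 on a log axis, 1 point per library coloured by group. The lines mark the thresholds that chose the genes, 4 and 0.5 CPM, so the gap between the MS-275 points and the others follows from the choice.

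Genes of placenta and testis included the pair with the highest levels. Esx1 (chrX:137115397-137122131), an X-linked homeobox gene of placenta and male germ cells, was read at 49.4 and 39.4 CPM with MS-275, 0.46 and 0.442 with DMSO, 0.461 and 0.329 at day 0, 0.0513 and 0.054 at day 4 and 0.154 and 0 at day 8. Both MS-275 libraries lay far above the other 8. The day 0 and DMSO libraries overlapped and lay above those of day 4 and day 8, and the mean with MS-275 was 98.5 times that with DMSO. Plac1 (chrX:53069993-53240110), an X-linked gene for a secreted protein of trophoblast, was read at 27.3 and 23.9 CPM with MS-275, 0.511 and 0.11 with DMSO, 0 and 0.11 at day 0, 0.102 and 0.324 at day 4 and 0.154 and 0.215 at day 8. Outside MS-275 its highest library was DMSO replicate 1, and the other DMSO library lay within the range of the rest. Another X-linked gene, 4930502E18Rik (chrX:53724655-53738565), is listed by RefSeq as Ct55, a cancer and testis antigen, and was read at 6.74 and 6.75 CPM with MS-275, 0.613 and 0.331 with DMSO, 0 and 0 at day 0, 0 and 0 at day 4 and 0.0515 and 0 at day 8. Its MS-275 libraries were nearly equal, and its 18 counts with DMSO were the most of any of the 22 genes. Spink2 (chr5:77205106-77216258), a protease inhibitor of the sperm acrosome, was read at 5 and 4.73 CPM with MS-275, 0.255 and 0.166 with DMSO, 0.41 and 0.384 at day 0, 0 and 0.054 at day 4 and 0.154 and 0.323 at day 8. It was close to 0 at day 4 and in the same low range in the other groups.

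Antigen presentation was represented by 3 genes of MHC class II, the surface proteins that show peptides to helper T cells. H2-Aa (chr17:34282744-34287823), the alpha chain of the I-A molecule, was read at 14.7 and 15.4 CPM with MS-275, 0.0511 and 0.331 with DMSO, 0.358 and 0.274 at day 0, 0.205 and 0.216 at day 4 and 0.258 and 0.377 at day 8. The MS-275 libraries stood close together and apart from all others. H2-Eb1 (chr17:34305867-34316674), the beta chain of I-E, was read at 8.17 and 6.22 CPM with MS-275, 0.0511 and 0.0552 with DMSO, 0.0512 and 0.384 at day 0, 0 and 0 at day 4 and 0 and 0.0538 at day 8. It had 2 counts with DMSO, and the ratio of MS-275 to DMSO had a counting interval of 37.2 to 1126. H2-Ob (chr17:34238905-34245908), the beta chain of the H2-O molecule that restrains peptide loading, was read at 8.06 and 6.3 CPM with MS-275, 0 and 0 with DMSO, 0.41 and 0.384 at day 0, 0 and 0 at day 4 and 0 and 0 at day 8. It had 0 counts in the DMSO, day 4 and day 8 libraries, and its MS-275 mean was at least 90.3 times the floor of 3 counts over both DMSO libraries. These 3 genes lie in a row on chromosome 17, 36.8 kb between H2-Ob and H2-Aa and 18 kb between H2-Aa and H2-Eb1.

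The butyrophilins are relatives of the B7 costimulatory proteins. Btn1a1 (chr13:23456984-23465914), known from the milk fat globule, was read at 3.5 and 5.21 CPM with MS-275, 0.408 and 0.497 with DMSO, 0.205 and 0.165 at day 0, 0.102 and 0.108 at day 4 and 0 and 0.0538 at day 8. Btn2a2 (chr13:23477049-23488858), which acts on T cells, was read at 4.51 and 6.17 CPM with MS-275, 0.306 and 0.442 with DMSO, 0.256 and 0.494 at day 0, 0.154 and 0.324 at day 4 and 0.206 and 0.646 at day 8. For both, replicate 2 was the higher MS-275 library, and in Btn2a2 a day 8 library reached 0.646 CPM. The 2 genes are neighbours on chromosome 13 with a gap of 11.1 kb.

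Of the lymphocyte genes, Pik3ap1 (chr19:41272541-41385102), an adaptor that links the B cell receptor to phosphoinositide 3-kinase, was read at 10.4 and 9.73 CPM with MS-275, 0.153 and 0.221 with DMSO, 0.0512 and 0.439 at day 0, 0.256 and 0.108 at day 4 and 0.268 and 0.538 at day 8. Themis2 (chr4:132781843-132796364), an adaptor of B cells and macrophages, was read at 6.37 and 4.89 CPM with MS-275, 0 and 0.166 with DMSO, 0.563 and 0.0549 at day 0, 0 and 0.162 at day 4 and 0.103 and 0.161 at day 8. In Themis2 a day 0 library stood at 0.563 CPM and the other at 0.0549 CPM. Tbx21 (chr11:97098007-97115331), the T-box factor of type 1 helper T cells, was read at 6.42 and 4.58 CPM with MS-275, 0.0511 and 0.0552 with DMSO, 0.41 and 0.494 at day 0, 0 and 0.054 at day 4 and 0.206 and 0.323 at day 8. Both its day 0 libraries lay above its day 4 and day 8 libraries, and its DMSO libraries held 1 count each.

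The developmental factors were Barx1 and Pax9. Barx1 (chr13:48663036-48666507), a homeobox factor of stomach and tooth mesenchyme, was read at 8.38 and 6.28 CPM with MS-275, 0.511 and 0.331 with DMSO, 0.154 and 0.439 at day 0, 0.256 and 0.27 at day 4 and 0.206 and 0.215 at day 8. Pax9 (chr12:56691693-56712824), a paired-box factor of the pharyngeal pouches and teeth, was read at 7 and 7.23 CPM with MS-275, 0.357 and 0.331 with DMSO, 0 and 0 at day 0, 0.0513 and 0.108 at day 4 and 0.103 and 0 at day 8. Pax9 had 0 counts in both day 0 libraries and its next highest group was DMSO. The secreted ligands were C1ql4 and Wnt16. C1ql4 (chr15:99084086-99090674), a secreted C1q-like protein, was read at 6.36 and 3.51 CPM with MS-275, 0.153 and 0.166 with DMSO, 0.205 and 0.22 at day 0, 0 and 0.054 at day 4 and 0 and 0 at day 8. Its MS-275 libraries differed by 1.81 times, the widest ratio among the 22 genes, and 1 of them lay under 4 CPM. Wnt16 (chr6:22288178-22298522), a Wnt ligand of bone and skin, was read at 4.46 and 3.67 CPM with MS-275, 0.153 and 0.0552 with DMSO, 0.205 and 0.549 at day 0, 0.256 and 0.432 at day 4 and 0.0515 and 0.161 at day 8. A day 0 library of Wnt16 reached 0.549 CPM.

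Of the enzymes, Gpx6 (chr13:21295465-21319625), a glutathione peroxidase of the olfactory epithelium, was read at 11.9 and 11.8 CPM with MS-275, 0.562 and 0.276 with DMSO, 0.525 and 0.275 at day 0, 0.154 and 0 at day 4 and 0.412 and 0.377 at day 8. Entpd2 (chr2:25395874-25401323), which splits extracellular ATP, was read at 6.52 and 6.06 CPM with MS-275, 0.204 and 0.331 with DMSO, 0.41 and 0.329 at day 0, 0.0513 and 0.216 at day 4 and 0.154 and 0 at day 8. Acpp (chr9:104288240-104337722), prostatic acid phosphatase, was read at 6.21 and 6.12 CPM with MS-275, 0.255 and 0.331 with DMSO, 0.307 and 0.11 at day 0, 0.0513 and 0.108 at day 4 and 0.154 and 0.215 at day 8. In these 3 the MS-275 libraries differed by 1.01 to 1.08 times, against a median of 1.17 over the 22 genes. Myom3 (chr4:135758800-135815571), a protein of the muscle M band, was read at 4.03 and 4.47 CPM with MS-275, 0.0511 and 0 with DMSO, 0.41 and 0.0549 at day 0, 0 and 0.162 at day 4 and 0.206 and 0 at day 8. Exoc3l2 (chr7:19463287-19496762), a relative of the exocyst subunit Sec6, was read at 4.24 and 3.78 CPM with MS-275, 0.0511 and 0.11 with DMSO, 0.205 and 0.714 at day 0, 0.256 and 0.108 at day 4 and 0.258 and 0.323 at day 8. A day 0 library of Exoc3l2 reached 0.714 CPM, the highest value of the 22 genes outside MS-275.

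Of the 22 genes, 15 stood higher in MS-275 replicate 1 and 7 in replicate 2. The next highest group was day 0 for 11 genes, DMSO for 8, day 8 for 3 and day 4 for 0. The genes lay on 14 chromosomes, 4 of them on chromosome 13, 3 on X, 3 on 17 and 2 on 4. All 22 passed the filter on low counts, which their MS-275 libraries alone could carry them through.

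The thresholds ran through a continuous range of values. Just inside the upper threshold lay Exoc3l2 at 4.01 CPM and Wnt16 at 4.06 CPM with MS-275. Just outside it lay Fam19a3 at 3.93 CPM, Slc52a3 at 3.86 CPM and Dhh at 3.84 CPM, each under 0.5 CPM elsewhere. Just inside the lower threshold lay 4930502E18Rik with 0.472 CPM with DMSO, Exoc3l2 with 0.459 CPM at day 0 and Btn1a1 with 0.453 CPM with DMSO. Just outside it lay Lgr6, at 10.2 CPM with MS-275 and 0.509 CPM at day 4, Entpd3, at 4.75 CPM and 0.545 CPM at day 4, and Hrc, at 10.6 CPM and 0.552 CPM at day 8. Under 0.5 CPM in the 4 other groups were 6738 protein-coding genes, of which the 22 were 0.327%, and 6286 stayed under 0.5 CPM with MS-275 too. The same rule turned to another group gave 10 genes for day 0, 1 for DMSO, 2 for day 4 and 7 for day 8. At least 4 CPM with MS-275 and under 0.5 CPM with DMSO were 180 genes, and 7 genes met the reverse. Of the 158 that are not among the 22, 138 reached 0.5 CPM at day 0, 97 at day 8 and 66 at day 4.

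The day 2 peak lists are a measurement that the choice of genes did not use. A peak counted at a start when it lay within 1 kb of the gene's 5′ end, which was known for 20 of the 22 genes and for 17139 protein-coding genes. With MS-275, 19 of the 20 genes (95%) had an H3K9ac peak at the start, against 7 (35%) with DMSO. All protein-coding genes gave 64.8% and 58.5%. H3K9cr gave 19 with MS-275 and 8 with DMSO, beside 63.8% and 58.4% of all genes. Gpx6 was the 1 of the 20 without a peak of either mark. Genes of at least 4 CPM with DMSO had H3K9ac with MS-275 at 95% and H3K9cr at 94.7%. H3K18la gave 3 of the 20 in each condition, beside 19.8% of all genes with MS-275 and 50.5% with DMSO. None of the 20 lost an H3K9ac or H3K9cr peak, and such losses were rare over all protein-coding genes (0.286% and 0.525%).

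Read against all genes, 12 of the 20 (60%) had H3K9ac at the start with MS-275 and none with DMSO, beside 6.59% of all protein-coding genes with a start. For H3K9cr it was 11 of 20 (55%) beside 5.93%. For H3K18la it was 2 of 20 beside 1.99%. An H3K18la peak with DMSO was found at 3 of the 20 (15%), beside 8649 of all genes (50.5%). Of those 3 genes 2 had none with MS-275, and of the 8649 genes 5597 had none. Among the 5175 genes with a start that were under 0.5 CPM in all 5 groups, without the Hox, Col and Pcdh symbols, H3K9ac was gained at 6.69% and H3K9cr at 5.70%. There was 1 library per mark and condition, so these shares have no replicate check and no test. The MS-275 lists were also much longer: 84418 H3K9ac peaks over 122 Mb against 26555 over 34.2 Mb with DMSO, and 70748 H3K9cr peaks over 107 Mb against 24874 over 32.5 Mb. The H3K18la list was shorter with MS-275, 31577 peaks over 16.3 Mb against 36382 over 26.8 Mb.

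**Figure D2:**
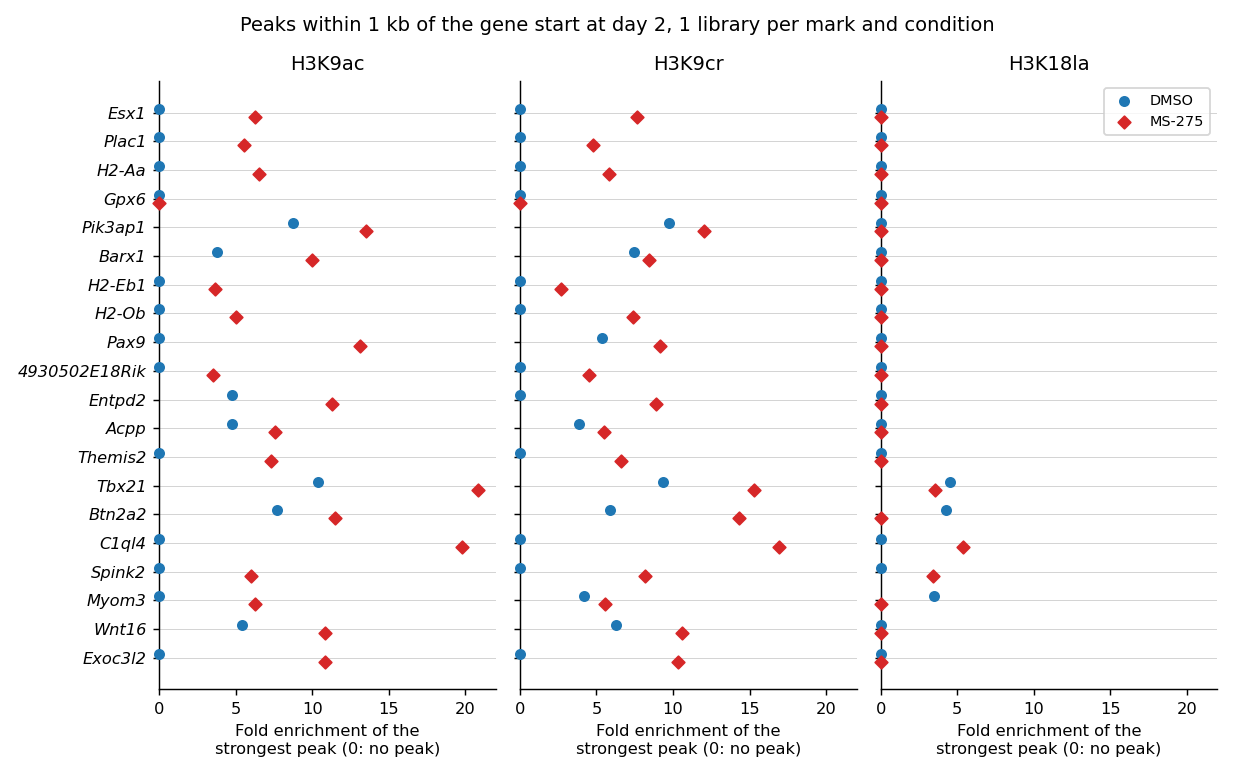
The authors' fold enrichment of the strongest peak within 1 kb of the start (horizontal axis, 0 where there was no peak) for the 20 genes with a known start, with DMSO (circles) and MS-275 (diamonds), 1 library each. With MS-275, 19 genes had an H3K9ac and an H3K9cr peak, and Gpx6 had neither.

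The genes fell into classes by their marks with DMSO. With DMSO 11 of 20 (55%) had no peak of any mark at the start, beside 40% of all protein-coding genes. Among genes under 0.5 CPM elsewhere, this share was 59.1% at 0.5 to 1 CPM with MS-275 and 56.6% at 1 to 4 CPM. Of the 11 genes, 10 had both H3K9ac and H3K9cr with MS-275: Esx1, Plac1, H2-Aa, H2-Eb1, H2-Ob, 4930502E18Rik, Themis2, C1ql4, Spink2 and Exoc3l2. C1ql4 and Spink2 also had H3K18la with MS-275. At Esx1 the MS-275 peaks had a fold enrichment of 6.28 for H3K9ac and 7.67 for H3K9cr over 1287 and 1167 bases. At Plac1 the values were 5.52 and 4.76. The fold enrichment is the authors' value and describes a peak within its own list. At the MHC class II genes it was 6.53 and 5.82 for H2-Aa, 5.02 and 7.40 for H2-Ob, and 3.62 and 2.67 for H2-Eb1. The medians over the 19 genes with a peak were 7.57 for H3K9ac and 8.20 for H3K9cr.

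The other 9 genes had a mark at the start with DMSO although their RNA was under 0.5 CPM there. Pik3ap1, Barx1, Acpp and Wnt16 had H3K9ac and H3K9cr in both conditions, and Btn2a2 and Tbx21 had all 3 marks with DMSO. Entpd2 had H3K9ac, Pax9 had H3K9cr, and Myom3 had H3K9cr and H3K18la. These DMSO peaks were small: the median fold enrichment of H3K9ac was 5.38 over 7 of the genes, against 40.5 over the 10025 protein-coding genes with such a peak. With MS-275 the median over 19 genes was 7.57, against 13.9 over 11105 genes. Peak lengths differed widely. The H3K9ac peak at C1ql4 spanned 15932 bases with MS-275, and the H3K9cr peak at Tbx21 spanned 852 bases with DMSO and 16707 bases with MS-275.

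RefSeq lists the start of some genes away from the gene's 5′ end, and this moved 4 of the 20 genes. Counting a peak at any listed start, 20 of 20 genes had H3K9ac and 20 of 20 had H3K9cr with MS-275. All protein-coding genes with a start gave 67.8% and 66.9%. Gpx6 then joined the genes without a mark with DMSO and with both marks with MS-275, at a start 16738 bases inside the gene. C1ql4 and Spink2 left that class, since they had H3K9ac and H3K9cr with DMSO at starts 2946 and 4787 bases inside. Pax9 had H3K9ac with DMSO at a start 3778 bases inside, so it no longer counted as a gain, and H3K18la with MS-275 there. By this count 10 of 20 genes gained H3K9ac, beside 5.54% of all genes, and 10 of 20 gained H3K9cr, beside 4.90%. No mark with DMSO was then found at 9 of the 20 (45%), beside 6188 of all protein-coding genes with a start (36.1%). All 9 had both H3K9ac and H3K9cr with MS-275, while of the 6188 genes 592 (9.57%) had both.

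Peaks at the start went with the RNA level with MS-275 among genes under 0.5 CPM elsewhere. H3K9ac with MS-275 was found at 9.99% of the 5175 genes under 0.5 CPM with MS-275, 58.6% of 198 genes at 0.5 to 1 CPM, 65.4% of 136 genes at 1 to 4 CPM, and 95% of the 20 chosen genes. H3K9cr gave 8.85%, 55.6%, 60.3% and 95%. With DMSO the H3K9ac shares were 3.52%, 33.8%, 33.8% and 35%. The share with MS-275 was larger in each higher band, while with DMSO it was nearly the same in the upper 3. Of the 115 genes that were also at least 4 CPM with MS-275 and under 0.5 CPM with DMSO but reached 0.5 CPM at another time, 67% had H3K9ac at the start with DMSO and 89.6% with MS-275.

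**Figure D3:**
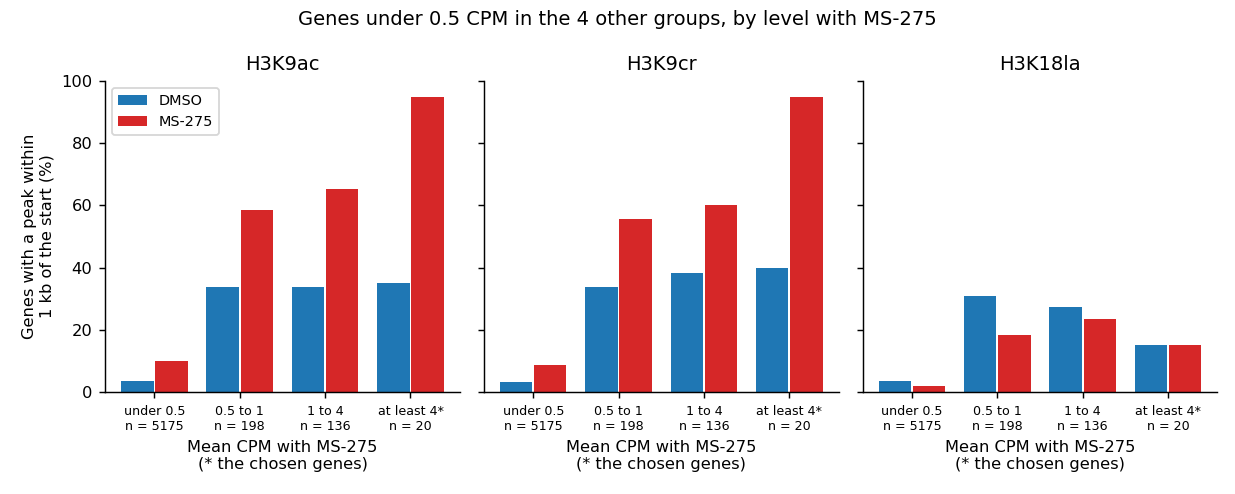
Share of genes with a peak within 1 kb of the start (vertical axis, %) by mean CPM with MS-275 (horizontal axis), among genes under 0.5 CPM in the 4 other groups, with DMSO (blue) and MS-275 (red), 1 library each. For H3K9ac with MS-275 the bars stand at 9.99%, 58.6%, 65.4% and 95%, the last for the 20 chosen genes.

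At day 4, in cells without MS-275, 10 of the 20 genes had no mark and no ATAC peak that was found at the start in both libraries. H3K9ac was found in both libraries at 8 genes, H3K9cr at 7, H3K18la at 3 and ATAC at 3. Acpp, Btn2a2 and Wnt16 were the genes with an ATAC peak in both libraries, and all 3 had H3K9ac and H3K9cr as well. Esx1, Plac1, H2-Eb1, H2-Ob, 4930502E18Rik, Spink2 and Exoc3l2, which had no mark with DMSO at day 2, had none at day 4 either. Themis2 had no mark with DMSO at day 2 and H3K9ac and H3K9cr at day 4, where its RNA was 0 and 0.162 CPM. H2-Aa and C1ql4 had H3K18la as the only peak found in both day 4 libraries. In replicate 1 alone, H2-Aa also had H3K9ac (fold enrichment 4.34) and ATAC (8.05), and C1ql4 had H3K9ac (4.71). All protein-coding genes gave 60.1% for H3K9ac, 58.8% for H3K9cr, 49.3% for H3K18la and 47.9% for ATAC. Genes under 0.5 CPM in all 5 groups gave 4.60%, 3.56%, 3.32% and 2.32%. Those at 1 to 4 CPM with MS-275 and under 0.5 CPM elsewhere gave 33.1%, 32.4%, 14% and 16.2%. The 20 genes, at 40%, 35%, 15% and 15%, lay near this last set.

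The promoters of the 20 genes were compared with all 17139 over 250 bases before to 50 after the start. They held a median of 8.5 CpG, against 14 over all genes, 22 over genes of at least 4 CPM with DMSO and 2 over genes under 0.5 CPM in all 5 groups. The range was wide, from 0 CpG at H2-Eb1 to 50 at Barx1. Of the sequences printed above, that of Esx1, whose listed start lies 1805 bases inside the gene, holds 24 CpG, and those of Plac1, H2-Ob, H2-Aa and H2-Eb1 hold 2, 2, 3 and 0.

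Motifs were searched as exact letters on both strands. The CCAAT box was found at 8 of 20 (40%), beside 39% of all promoters. GGGCGG, the core of an SP1 site, was at 5 (25%) beside 46.9%. CACGTG, an E-box that lies at Esx1, Gpx6, Pik3ap1 and 4930502E18Rik, was at 4 (20%) beside 7.99%. TCCCGC was at 3 (15%) beside 26%, TATAAA at 1 (5%) beside 13.2%, and TGACGTCA, the full cyclic AMP response element, at 1 beside 2.35%. A match describes the letters in this window and shows no binding.

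In the 3 MHC class II promoters the capitals fall at like places. ATTGG begins 57 bases before the start of H2-Ob, 48 before that of H2-Aa and 59 before that of H2-Eb1, which also holds CCAAT at 35. TGACGTCA, the letters found at 1 of the 20 genes, are those of H2-Aa. The proximal promoters of this family are known for a set of boxes that ends in such an inverted CCAAT box. A CCAAT or ATTGG beginning 60 to 35 bases before the start, a window set after these matches were seen, was found at 5 of the 20 genes (the 3 MHC genes, Gpx6 and Btn2a2) and at 7.44% of all promoters. With MS-275 an H3K9ac peak overlapped the printed 250 bases of H2-Ob and H2-Aa, while those at H2-Eb1 and Plac1 lay within 1 kb but outside the printed stretch.

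The other genes of the class II pathway were read for comparison, from a list made after the values were seen and so given without a test. All 7 class II genes that are not among the 22 had both MS-275 libraries above both DMSO libraries, beside 48.3% of all 17789 genes tested. Cd74, the invariant chain, was read at 0.357 and 0.221 CPM with DMSO and 20.4 and 16.6 CPM with MS-275. H2-DMa, which loads peptide, was at 2.08 and 2.14 CPM against 18.8 and 20.6 CPM, and H2-Oa, the partner of H2-Ob, at 0.408 and 0.386 CPM against 7.05 and 8.24 CPM. H2-Ab1, the partner of H2-Aa, reached 1.86 and 1.22 CPM with MS-275. These genes missed the choice because they stood above 0.5 CPM at day 0 or at another time, or under 4 CPM with MS-275. Ciita, the activator that class II genes depend on in immune cells, was read at 0.102 and 0 CPM with DMSO, 0.636 and 0.319 CPM with MS-275, and 0.824 and 0.861 CPM at day 8. Its part in the class II levels was not tested. Of the 8 regulators, Ciita included, 3 had both MS-275 libraries above both DMSO libraries and 4 below, beside 32.9% of all genes below.

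**Figure D4:**
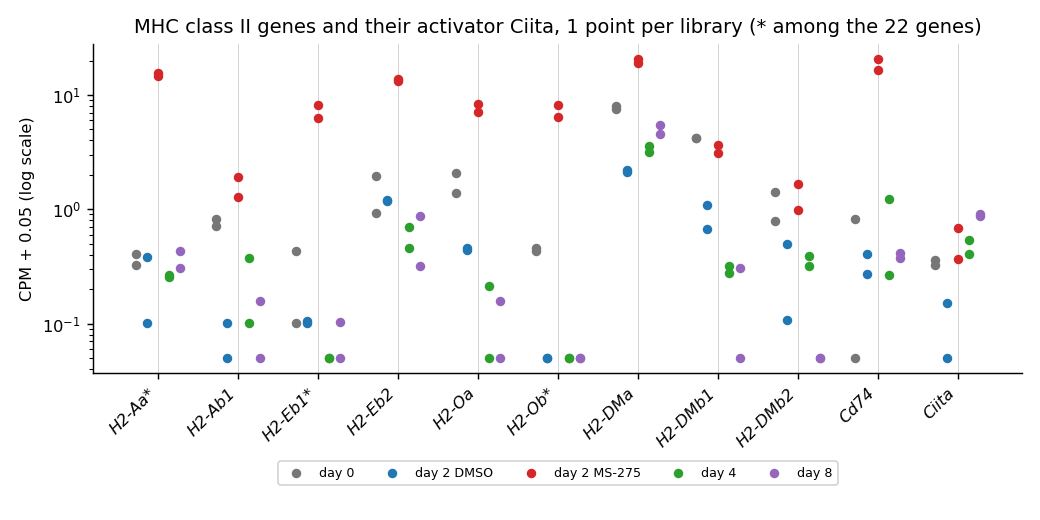
CPM plus 0.05 (log axis) of the 10 MHC class II genes and of Ciita in the 10 RNA libraries, 1 point per library coloured by group, with an asterisk for those among the 22 genes. In each class II gene both MS-275 points lie above both DMSO points, and so do those of Ciita, at 0.636 and 0.319 CPM against 0.102 and 0 CPM before the offset.

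Surface and signalling genes of blood cells were read to see what else of those lineages was present. Of 30 genes, none among the 22, 13 passed the filter on low counts, 9 were called higher and 0 lower in edgeR's test. The background was 31.9% of 17789 genes called higher and 31.4% lower. Since the list was chosen with earlier results of these data known, its share is a description only. Its genes could also pass the filter through their MS-275 libraries alone. The list summed to 29.6 and 30.9 CPM with DMSO and 165 and 152 CPM with MS-275, and to 194 and 191 CPM at day 0. Thy1 was read at 0.102 and 0 CPM with DMSO and 21.4 and 20.8 CPM with MS-275. Cd74 rose by 5.82 ± 0.567 on the log2 scale (SE, edgeR adjusted p = 1.59e-07). Several genes that leukocytes share were called higher: Coro1a went from 2.7 to 22.9 CPM, Itgal from 0.211 to 3.8 CPM, Lcp1 from 0.48 to 2.76 CPM and Itgam from 0.24 to 1.27 CPM. At day 0 these stood at 29.7, 1.82, 1.31 and 0.962 CPM. Other markers of leukocytes were near 0 with MS-275: Ptprc was at 0.106 and 0.0532 CPM, and Cd3e, Tyrobp and Vav1 at 0 in both libraries. At 19 of the 30 genes the MS-275 mean was under 0.5 CPM.

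Trophoblast genes, also listed after the values were seen, are given without a test. Of 14 genes beside these, 10 had both MS-275 libraries above both DMSO libraries and 0 below, where all genes tested gave 48.3% and 32.9%. Tfap2c was read at 11.4 and 9.72 CPM with DMSO and 55 and 53.3 CPM with MS-275, Cdx2 at 1.89 and 1.93 CPM against 11.3 and 9.68 CPM. The placental genes Prl3d1, Prl2c2 and Tpbpa were at 0 in every library. Butyrophilin relatives numbered 6 beside Btn1a1 and Btn2a2, and each had a mean under 0.5 CPM with MS-275.

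The nearest protein-coding genes on each side of the 22 genes were tested, since the choice did not use them. There were 39 of them, of which 33 were tested. Of these 14 were called higher (42.4%) and 10 lower (30.3%), beside 35.4% and 34.5% of all protein-coding genes tested. The median log2 fold change of the neighbours was 0.14, beside 0.01 over all genes tested. Around the MHC class II genes H2-Eb2, a second beta chain, rose from 1.14 ± 0.0254 to 13.5 ± 0.424 CPM (SD, n = 2; log2 fold change 3.42 ± 0.342 SE, edgeR adjusted p = 2.15e-07). Tap2, which pumps peptides for MHC class I, rose by 4.19 ± 0.375 on the log2 scale, from 0.978 to 19.8 CPM. H2-Ab1 was also called higher. Without these 3 genes 11 of 30 (36.7%) were called higher and 10 (33.3%) lower, near the shares over all protein-coding genes.

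Elsewhere the neighbours moved both ways. Fam122b beside Plac1 rose from 27.2 to 58.3 CPM, a log2 fold change of 0.96, and Ptpdc1 beside Barx1 rose from 19.4 to 36 CPM, a log2 fold change of 0.76. Phf2, a histone demethylase on the other side of Barx1, fell from 59.4 to 21.4 CPM, and Sapcd2 beside Entpd2 fell from 19.1 to 11.6 CPM. Beside Esx1, Fam199x was at 59.2 and 62.2 CPM with DMSO and 67.6 and 70.7 CPM with MS-275 (edgeR adjusted p = 0.551), and Il1rapl2 was at 0 in all 4. Troap, 0.676 kb from C1ql4, had a log2 fold change of -0.04 (edgeR adjusted p = 0.718). Gpx5, 2.74 kb from Gpx6 and of the same family, had 0 counts in 3 of the 4 day 2 libraries.

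**Figure D5:**
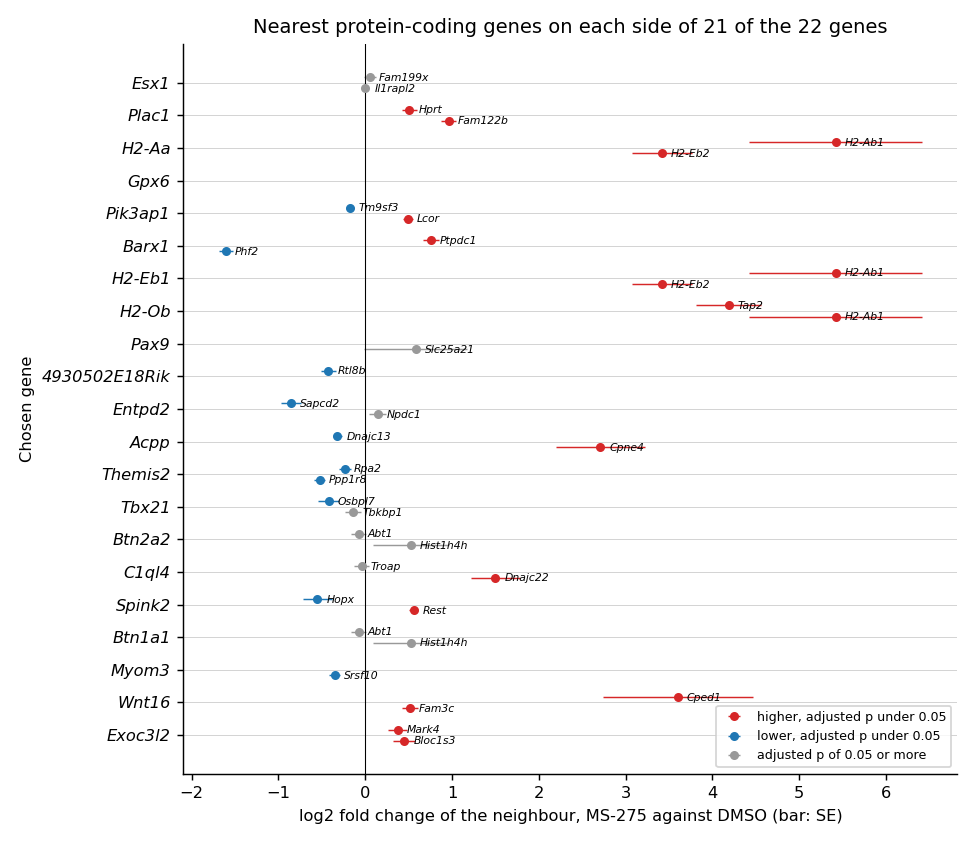
log2 fold change, MS-275 against DMSO, of the nearest protein-coding gene on each side of 21 of the 22 genes (rows), with its SE over the fit of all 10 RNA libraries, coloured by edgeR's call. Apart from H2-Ab1, H2-Eb2 and Tap2 around the MHC class II genes, 11 of the 30 neighbours tested over all 22 genes, 1 of which is not drawn, were called higher and 10 lower. Over all protein-coding genes tested, 35.4% were called higher and 34.5% lower.

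Relatives by name, the genes that share a member's symbol up to its last number, came to 77, of which 55 were tested. Of these 24 (43.6%) were called higher and 14 (25.5%) lower, beside 35.4% and 34.5% of all protein-coding genes tested. The median log2 fold change of the relatives was 0.45, beside 0.02 over the protein-coding genes. The T-box genes gave 5 higher and 1 lower of 9, the Entpd genes 4 and 1 of 7, the Pax genes 3 and 2 of 6, the Wnt genes 5 and 6 of 17, and the Gpx genes 1 and 3 of 5. Pax2, a factor of kidney and midbrain, rose from 1.09 ± 0.0976 to 13.5 ± 1.74 CPM (edgeR adjusted p = 5.18e-11). Wnt8a rose from 0.969 ± 0.434 to 12.9 ± 1.15 CPM and Entpd5 from 13.4 ± 1.18 to 51.5 ± 0.534 CPM. Wnt1, a dorsal midbrain ligand, fell from 30.2 ± 0.622 to 4.86 ± 1.15 CPM, and Tbx2 from 28.7 ± 1.21 to 4.73 ± 0.442 CPM. Barx2 and Exoc3l4, the sole relatives of Barx1 and Exoc3l2 that this symbol rule counted, were both called higher, at 1.22 and 6.03 CPM with MS-275.

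Other gene lists, none of which held any of the 22, were read from the same fit. They cover lineages, neural synapse genes, enzyme families, genes widely reported to rise with deacetylase inhibitors, and silencing machinery. All were chosen with earlier results of these data known, so their shares beside the background are a description only. Listed genes could also pass the filter on low counts through their MS-275 libraries alone. Over 258 genes in 14 lists, 195 were tested, 118 (60.5%) were called higher and 33 (16.9%) lower, beside 31.9% and 31.4% of all genes tested and 35.4% and 34.5% of the protein-coding ones. The median log2 fold change was 1.37. Among the lists were muscle contraction, 17 higher and 0 lower of 22, keratin and epithelial barrier, 19 and 0 of 25, and germline and meiosis, 10 and 1 of 14. The MS-275 mean was under 0.5 CPM at 11 of 29 muscle, 9 of 32 keratin and 14 of 27 germline genes. The muscle list summed to 133 and 124 CPM with MS-275 and 31.6 and 31.7 CPM with DMSO, but to 241 and 243 CPM at day 0. The keratin list summed to 566 and 550 CPM with MS-275, 126 and 125 CPM with DMSO, and 330 and 318 CPM at day 0. Myl4, an atrial myosin light chain, rose from 0.104 to 4.41 CPM and Myh6 was at 2.66 CPM with MS-275 and 11.9 CPM at day 0. Cldn6, an embryonic tight junction claudin, rose from 0.344 ± 0.0185 to 58 ± 8.33 CPM, and Cldn23 was at 2.18 CPM. Stra8, the inducer of meiosis, rose from 2.2 ± 0.0662 to 40.3 ± 2.44 CPM and Tex14 from 0.189 to 4.78 CPM, while Sycp1 fell from 22 to 9.33 CPM. Single DMSO libraries weighed on the low genes: the log2 fold change of Tex14 was 4.50, and 5.32 without DMSO replicate 2, and that of Myl4 was 5.16, and 6.02 without DMSO replicate 1.

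Synapse and ion channel genes gave 18 higher and 5 lower of 30. Beside this and the next lists, 35.4% of all protein-coding genes tested were called higher and 34.5% lower. Grin2b rose from 0.540 to 5.50 CPM and Kcna1 from 0.393 to 3.45 CPM, while Cplx2 fell from 87.4 to 9.83 CPM. The log2 fold change of Grin2b was 3.22, and 4.00 without DMSO replicate 2. Endothelial genes gave 6 and 1 of 11, and 4 of the 12 listed had a mean under 0.5 CPM with MS-275. Vwf rose from 0.266 to 3.82 CPM and Erg from 0.110 to 2.02 CPM, and Tek fell from 2.14 to 1.30 CPM at an adjusted p of 0.0314, a call that DESeq2 did not make (adjusted p = 0.116). Without DMSO replicate 2 the adjusted p of Tek was 0.316. Erg had 4 counts with DMSO, and its log2 fold change of 4.03 became 3.01 without DMSO replicate 1 and 8.17 without DMSO replicate 2. Of 18 hepatocyte and gut endoderm genes 9 were tested, with 5 called higher and 0 lower. At 12 of the 18 the MS-275 mean was under 0.5 CPM, while Vil1 was at 4.75 CPM and Gata4 at 1.97 CPM. The log2 fold change of Gata4 was 2.86, and 2.18 or 4.04 without DMSO replicate 1 or 2. Fibroblast and mesenchyme genes gave 7 and 3 of 12, Pdgfrb rising from 4.38 to 40.6 CPM and Prrx1 falling from 9.17 to 3.39 CPM. Astrocyte and oligodendrocyte genes gave 7 and 2 of 11, Cnp rising from 1.79 to 15.3 CPM, Sox10 from 5.45 to 15.1 CPM, and Slc1a3 falling from 34.1 to 19.2 CPM.

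Peptidylarginine deiminases, enzymes that turn arginine to citrulline, gave 3 higher of 3 tested, beside 35.4% of all protein-coding genes tested. Padi2 was at 0.102 and 0 CPM with DMSO and 50 and 41.6 CPM with MS-275, and Padi3 rose from 0.291 to 13.7 CPM. Secreted phospholipases A2 gave 3 of 4, with Pla2g1b rising from 0.134 to 24.9 CPM and Pla2g12a from 15.5 to 25.1 CPM. The MS-275 mean was under 0.5 CPM at 2 of 5 deiminases and 6 of 10 phospholipases. Genes widely reported to rise with deacetylase inhibitors gave 9 higher and 1 lower of 10, Gsn rising from 3.51 to 49.1 CPM and Tubb3 falling from 91.3 to 58.4 CPM.

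Silencing machinery held calls in both directions. Class I deacetylases and their complex partners gave 4 higher (26.7%) and 7 lower (46.7%) of 15. Beside them, 35.4% of all protein-coding genes tested were called higher and 34.5% lower. Hdac1, a direct target of MS-275, rose from 238 ± 1.47 to 435 ± 14.8 CPM (edgeR adjusted p = 1.53e-09), and Ncor1, a corepressor that recruits Hdac3, fell from 477 to 258 CPM. Silencers of germline and lineage genes gave 4 higher (20%) and 13 lower (65%) of 20. Dnmt3b, a de novo DNA methyltransferase, rose from 52 to 213 CPM and Dnmt3l, its cofactor, from 0.106 to 3.11 CPM. Ehmt1, an H3K9 methyltransferase, fell from 175 to 117 CPM. At day 0 Dnmt3b stood at 1139 CPM, Dnmt3l at 30.5 CPM and Ehmt1 at 154 CPM. Whether any of these genes bears on the 22 was not tested.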

How the data were processed

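RNA-seq estimated counts of the 10 libraries were deposited as 1 table. The submitters' processing notes name, without roles, Salmon 1.1.0, Bowtie2 2.4.1, MACS2 2.2.7.1, DESeq2 1.26.0 and GRCm38. The 14 deposited peak lists give MACS2 columns per the file headers: pileup signal, fold enrichment as a ratio, and −log10 p and q. Each list belongs to 1 library, and input libraries had no list used here. CPM used column totals. Between 19.2% and 25.8% of the estimated counts were not whole, and all were rounded for tests. MS-275 was compared with DMSO by edgeR 4.0.16 (quasi-likelihood, filterByExpr, TMM, all 10 libraries, Benjamini-Hochberg over 17789 genes, R 4.3.3), and DESeq2 1.42.0 was an alternative. The test was checked on simulated data. Intervals of ratios cover counting error only, at 95%. Positions are GRCm38 gene spans from RefSeq, in which 21 of the 22 genes matched by symbol and 1 by synonym.

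The 22 genes and all lists were chosen with earlier results of these data known. The values of 1 of the 22, counted in every total, are not reported here, nor are those of a few list genes. Named beside the 22 were the 4 largest called rises and 2 largest falls among neighbours and relatives with a mean of at least 5 CPM, and per list the 2 largest rises and the largest fall at 1 CPM. Other genes named, such as Fam199x and Troap, and the lists of MHC class II, its regulators, butyrophilins and trophoblast were chosen after values were seen. Replicate numbers did not pair the samples, with correlations of deviations from -0.0306 to 0.0378.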

Additional observations from a re-analysis of the deposited data

How the results depend on the processing

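The number of genes chosen moved with the thresholds: 5 genes at 8 CPM or more with MS-275, 77 at 2 CPM or more, 64 with under 1 CPM elsewhere and 3 with under 0.25 CPM elsewhere. Leaving out 1 RNA library gave 18 to 25 genes. Within 5 kb of the start 11 of the 20 genes had H3K9ac and 8 had H3K18la with DMSO, and anywhere in the gene, over all 22 genes, 13 and 7, with 7 for H3K18la with MS-275. At day 4, H3K18la was found at 6 genes in either library and at 4 to 5 with 1 library left out, and ATAC at 5 in either. With a replicate block the neighbours gave 14 higher and 10 lower, the relatives 24 and 14, and the lists 115 and 33. Without 1 library the neighbours gave 13 to 14 higher and 8 to 10 lower, the relatives 21 to 23 and 12 to 13, and the lists 107 to 116 and 27 to 30. Of 360 alternatives over the 45 single genes named by rule, 355 kept their direction and their side of the threshold, and the other 5 were all of Tek. With column totals in place of TMM the median log2 difference of all genes was 0.120, against 0.005. The peak lists of day 2 had 1 library each, so no spread is known for them, and the cause of each change above was not tested.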
